A study of Mus musculus with 18 samples.

Results

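The genes described here are 10 regulators with known roles when macrophages respond to IL-4: the transcription factors *Irf4*, *Batf3*, *Egr2*, *Klf4*, *Pparg*, *Cebpb*, *Nfil3*, *Myc* and *Bhlhe40*, and the histone demethylase *Kdm6b*. They were taken by symbol, with no measured value in the rule, though earlier results of these data were known when they were picked. Each matched 1 of the 55385 gene rows of the count table. All 10 were among the 14979 genes that passed the count filter. Messenger RNA was sequenced from bone marrow-derived macrophages (BMDM) of female C57BL/6J mice aged 12 weeks, grown in medium with 20% L929 supernatant, a source of macrophage growth factor, and taken at day 7. Cells received vehicle (Veh, 0.1% DMSO), 250 µM hemicholinium-3 (HC3), which blocks choline uptake, or 5 µM RSM-932a (RSM), which inhibits choline kinase, for 24 h, and then either stayed naive (M[0]) or were given IL-4 at 20 ng/mL (called M[IL-4]) over another 24 h. The 6 groups of 3 libraries are therefore Veh, HC3 and RSM in M[0] and the same 3 treatments in M[IL-4], and the labels state that the libraries come from 3 individual mice.

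IL-4 binds its receptor on macrophages and activates the transcription factor STAT6, which enters the nucleus and turns on a set of genes linked to tissue repair and to immunity against helminths. Many of the first genes switched on encode transcription regulators, and these in turn act on later genes. IRF4 and BATF3 bind DNA next to each other or with JUN proteins; EGR2, a zinc finger factor, acts at enhancers late in the response; KLF4 is a zinc finger factor that cooperates with STAT6; PPARG is a nuclear receptor that senses fatty acids. CEBPB and NFIL3 are basic leucine zipper factors, MYC and BHLHE40 are basic helix-loop-helix factors, and KDM6B removes methyl groups from lysine residues of histone H3 at repressed genes.

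Start-site sequences were matched by symbol in a RefSeq table for GRCm38.p6 that runs from 250 bases before each start to 50 bases from it, and 7 of the 10 regulators had 1 or more entries, 13 in all. 4 are printed here because their genes carry the opposite responses described below, *Irf4* and *Batf3* falling and *Klf4* and *Nfil3* rising with both inhibitors in M[0]. Each is written 5′ to 3′ on the strand of the gene, and capitals mark every match, on either strand, to one of 9 motifs searched by their letters. *Irf4* lies on the plus strand, chr13:30748983-30749282.
Irf4: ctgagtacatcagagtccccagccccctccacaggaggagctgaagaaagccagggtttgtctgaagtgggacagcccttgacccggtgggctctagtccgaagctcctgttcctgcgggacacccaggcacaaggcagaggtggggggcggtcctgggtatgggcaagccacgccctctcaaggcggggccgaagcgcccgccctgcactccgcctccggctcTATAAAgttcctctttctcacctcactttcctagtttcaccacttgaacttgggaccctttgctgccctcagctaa
*Batf3* lies on the plus strand, chr1:191098164-191098463.
Batf3: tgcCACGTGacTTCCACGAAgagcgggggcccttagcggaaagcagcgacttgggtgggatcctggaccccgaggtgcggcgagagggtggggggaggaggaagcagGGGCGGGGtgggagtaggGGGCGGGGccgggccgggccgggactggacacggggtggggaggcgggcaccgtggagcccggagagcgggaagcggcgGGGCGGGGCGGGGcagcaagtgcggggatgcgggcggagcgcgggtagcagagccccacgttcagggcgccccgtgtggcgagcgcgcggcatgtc
*Klf4* lies on the minus strand, chr4:55532426-55532725.
Klf4: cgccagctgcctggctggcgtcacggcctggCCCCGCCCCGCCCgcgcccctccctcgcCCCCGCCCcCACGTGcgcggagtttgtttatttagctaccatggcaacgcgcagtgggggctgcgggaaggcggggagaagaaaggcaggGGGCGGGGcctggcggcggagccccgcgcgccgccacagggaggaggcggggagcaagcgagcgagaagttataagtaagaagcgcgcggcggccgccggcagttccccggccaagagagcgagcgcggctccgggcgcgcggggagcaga
*Nfil3* lies on the minus strand, chr13:52980990-52981289.
Nfil3: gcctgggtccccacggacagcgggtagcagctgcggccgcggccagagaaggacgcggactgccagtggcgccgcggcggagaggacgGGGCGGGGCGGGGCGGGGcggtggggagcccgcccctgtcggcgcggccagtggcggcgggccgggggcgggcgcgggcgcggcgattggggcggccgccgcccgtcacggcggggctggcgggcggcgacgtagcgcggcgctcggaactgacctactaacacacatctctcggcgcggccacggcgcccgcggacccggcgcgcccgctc

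The capitals in *Irf4* are a TATA box (TATAAA, held by 13.6% of all 32851 windows) that begins at position -26. Those in *Batf3* are an E-box (CACGTG, 7.15% of windows) at -247, a STAT site with a shorter spacer (TTCNNNGAA, 8.30%) at -239 that reads TTCCACGAA, and 4 GC boxes (GGGCGGGG, 17.6%), of which the pair at -46 and -41 overlap. *Klf4* held an E-box at -182 and 4 GC boxes, those at -219 and -214 overlapping, and *Nfil3* held 3 overlapping GC boxes from -162 to -152. The STAT6-type letters TTCNNNNGAA, held by 6.95% of windows, were in none of the 13 entries of the 7 regulators, and nor were the CEBP-ATF element core TGATGNAA (3.97%), the cyclic AMP response element TGACGTCA (1.79%), the IRF-type element GAAANNGAAA (3.44%) or the EGR site GCGTGGGCG (0.612%). The GC content was 61% for *Irf4*, 75.7% for *Batf3*, 74.3% for *Klf4* and 81.7% for *Nfil3*, against a median of 52.7% over all windows. A match is a stretch of letters, and binding was not measured.

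Values are given as CPM, read counts scaled to the TMM-adjusted size of each library, in the order of replicates 1, 2 and 3. Fold changes are on the log2 scale with their SE, from 1 edgeR quasi-likelihood fit of all 18 libraries with n = 3 a group. This SE was derived as the size of the log2 fold change over the square root of the F statistic of its test. FDR is the Benjamini-Hochberg adjusted p over the 14979 genes tested. A call required an FDR below 0.05 together with a shift of 1 log2 unit or more in either direction. Libraries held 17457796 to 19522255 counts. All 8 macrophage markers were detected in every group, and their sum differed between groups. It was 20277 to 21364 CPM in Veh M[0], 8707 to 9799 in HC3 M[0] and 15750 to 17196 in RSM M[0]. In the matching M[IL-4] groups it was 11801 to 12146, 7469 to 8657 and 10601 to 12982 CPM. The largest part of it in each group was *Lyz2*, and the markers differed. With HC3 in M[0], 6 of the 8 were called down, against 12.0% of all genes, *Lyz2* among them (-1.20 ± 0.12). All 8 fell there at FDR alone, against 44.1% of all genes. With RSM in M[0], *Lyz2* changed by 0.00 ± 0.12. In that comparison *Csf1r* (-1.21 ± 0.07), *Adgre1* (-1.16 ± 0.07) and *Fcgr1* (-1.03 ± 0.11) were called down, against 11.6% of all genes. With IL-4 in vehicle, 4 of the 8 were called down, against 6.66% of all genes, *Lyz2* among them (-1.36 ± 0.12). *Cd68* changed by 0.00 ± 0.07 with IL-4 in vehicle. Dendritic cell markers summed to at most 3.60 CPM in any library, neutrophil markers to at most 1.99 CPM and lymphoid markers to at most 0.523 CPM. The dendritic sum was 1.59 to 2.47 CPM in Veh M[0], 0.922 to 2.05 in HC3 M[0] and 1.03 to 1.44 in RSM M[0]. With IL-4 it was 2.48 to 3.60 CPM with vehicle, 1.58 to 2.35 with HC3 and 0.968 to 1.56 with RSM. Of this list only *Zbtb46* was called, up with IL-4 in vehicle (1.61 ± 0.58, FDR 0.0426), from 1 to 16 counts a library. The sum of 7 mast cell, basophil and eosinophil markers was 3.94 to 5.20 CPM in Veh M[0], 4.15 to 4.39 in HC3 M[0] and 1.28 to 2.13 in RSM M[0]. After IL-4 it was 10.5 to 26.8 CPM with vehicle, 5.97 to 8.74 with HC3 and 0.905 to 1.94 with RSM. In M[IL-4] this sum and the dendritic sum were highest with vehicle and lowest with RSM. The group means of *Irf4*, *Batf3*, *Egr2*, *Pparg* and *Myc* had the same order there. The HC3 and RSM libraries of *Irf4* and of *Myc* overlapped. In the vehicle and M[IL-4] groups most of the mast cell, basophil and eosinophil sum was *Siglecf*, which alveolar macrophages also express. *Siglecf* was called up by IL-4 in vehicle (2.17 ± 0.32) and down in M[IL-4] with HC3 (-1.48 ± 0.30) and RSM (-4.12 ± 0.37). *Mcpt8* went the other way, called down by IL-4 in vehicle (-2.52 ± 0.72) and up in M[0] with HC3 (1.50 ± 0.45) and RSM (1.43 ± 0.45). Its values rest on few counts, 5 to 8 a library in Veh M[0] and 0 to 2 in Veh M[IL-4]. Libraries of HC3 and RSM in M[0] held 14 to 23 and 17 to 20 counts of it. *Cpa3* was called in no comparison, and *Prg2*, *Il5ra*, *Fcer1a* and *Ms4a2* had no count in either vehicle group. 5 of 6 stromal markers passed the filter. Their sum was 507 to 855 CPM in Veh M[0], 1199 to 1644 in HC3 M[0] and 998 to 1423 in RSM M[0]. It was 278 to 648, 550 to 1038 and 527 to 1045 CPM in the matching M[IL-4] groups. Most of it was *Col1a1* and *Col1a2*, and the genes did not move together. *Col3a1* was called up by either inhibitor in naive and polarized cells (1.04 to 1.45), and *Col1a1* only in naive cells (1.17 ± 0.30 for HC3, 1.13 ± 0.30 for RSM). *Dcn* was instead called down by RSM, at -1.51 ± 0.25 for naive and -1.55 ± 0.26 for polarized cells. *Pdgfra* and *Col1a2* were not called against vehicle. In bulk RNA, fewer cells of a type and less RNA per cell cannot be told apart, and the part of these cells in the values below was not tested.

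IL-4 raised most of the 10 regulators in vehicle-treated BMDM. 7 were called up and none down, against 6.66% of all genes called in either direction, and 9 rose at FDR alone, against 31.0% of all genes. The median log2 change of the 10 was 2.73, against -0.01 over all genes. *Cebpb* was the only one of the 10 whose Veh M[0] and Veh M[IL-4] libraries overlapped, where 40.8% of all tested genes had no overlap. Under HC3, 6 were called up by IL-4 (background 3.97%) and 8 rose at FDR alone (14.7%), with a median of 1.17. Under RSM, 6 were called up (background 4.26%) and 8 rose at FDR alone (15.5%), with a median of 1.42. The 3 comparisons use separate libraries.

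**Figure D1:**
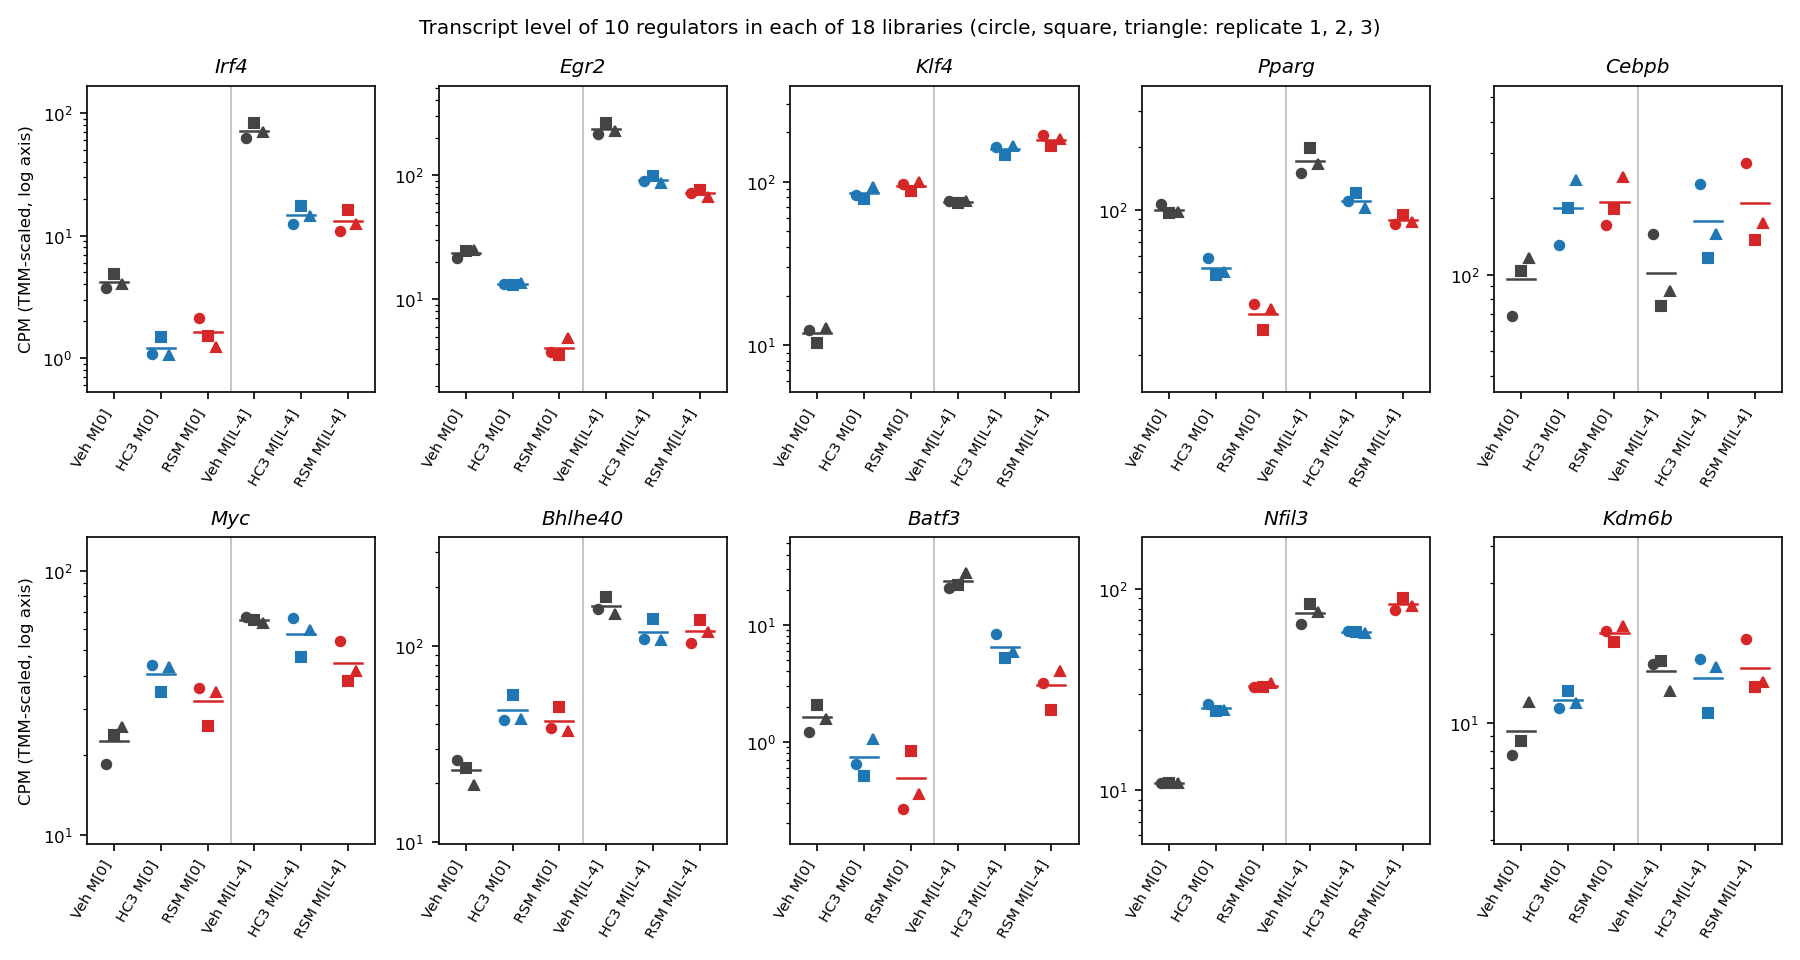
Transcript level of each regulator in each library, in CPM on a log axis that differs between panels, for the 6 groups; symbols are replicates 1, 2 and 3, horizontal lines are group means, and the grey vertical line parts M[0] from M[IL-4]. *Irf4*, *Egr2*, *Batf3* and *Pparg* are lower with both inhibitors on either side of the line, *Klf4* is higher, and *Nfil3* and *Bhlhe40* are higher in M[0].

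The inhibitors moved the same 10 genes in both directions before any IL-4 was added. In M[0], HC3 left 3 called up and 2 called down (background 12.0%), or 5 up and 4 down at FDR alone (44.1%). RSM left 4 called up and 4 called down (background 11.6%), or 6 up and 4 down at FDR alone (41.1%), and with RSM no regulator overlapped between the groups (51.5% of all tested genes did not). In M[IL-4] more were lower than higher: HC3 left 1 called up and 3 called down (10.3%), with 1 up and 6 down at FDR alone (38.8%), and RSM left 1 called up and 3 called down (11.0%), with 2 up and 6 down at FDR alone (38.6%). For HC3 the median log2 value of the 10 regulators was 0.59 among naive cells and -0.38 after IL-4, and for RSM the corresponding medians were 0.66 and -0.48, while over all genes it was 0.01 to 0.02. The shares of all genes passing FDR alone are high in these 4 comparisons, and both inhibitors were set against the same vehicle libraries. *Irf4*, *Egr2*, *Batf3* and *Pparg* were lower at FDR under 0.05 in all 4 comparisons, and *Klf4* was higher in all 4.

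*Irf4* encodes an interferon regulatory factor required for much of the IL-4 programme (chr13:30749226-30766976, plus strand, 10 exon blocks). Naive cells held it at 3.70, 4.82 and 4.03 CPM with vehicle, 1.07, 1.49 and 1.05 with HC3 and 2.13, 1.52 and 1.23 with RSM. Every inhibitor library was below every vehicle library. Polarized cells held it at 62.3, 83.1 and 69.4 CPM with vehicle, 12.5, 17.3 and 14.5 with HC3 and 10.8, 16.1 and 12.5 with RSM. The 2 inhibitor groups overlapped each other and lay far below vehicle, yet each was above every M[0] library. IL-4 raised *Irf4* by 4.10 ± 0.18, FDR 7.36e-12, in vehicle, which was the largest IL-4 response of the 10 regulators, by 3.61 ± 0.22 under HC3 and by 3.01 ± 0.21 under RSM. HC3 lowered it, with a log2 fold change of -1.79 ± 0.25 in naive cells and of -2.28 ± 0.16, FDR 2.16e-09, in polarized cells. For RSM the changes were -1.36 ± 0.24 in naive and -2.45 ± 0.16, FDR 7.84e-10, in polarized cells. Within a replicate number, the M[IL-4] level with HC3 was 0.201, 0.208 and 0.209 of the vehicle level, and with RSM 0.173, 0.194 and 0.180.

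*Batf3*, a basic leucine zipper factor that pairs with JUN proteins and binds beside IRF factors, followed the same course at a lower level (chr1:191097847-191108945, plus strand). In M[0] its CPM values were 1.22, 2.06 and 1.56 with vehicle, 0.642, 0.512 and 1.05 with HC3 and 0.267, 0.837 and 0.359 with RSM, the last from only 5, 16 and 7 counts. The M[0] values come from few counts. In M[IL-4] it reached 20.6, 22.1 and 28.1 CPM with vehicle, 8.43, 5.20 and 5.86 with HC3 and 3.16, 1.88 and 4.04 with RSM. The 3 M[IL-4] groups did not overlap, with vehicle highest and RSM lowest. *Batf3* rose with IL-4 by 3.87 ± 0.30, FDR 1.18e-08, in vehicle, 3.13 ± 0.34 under HC3 and 2.62 ± 0.39 under RSM. It fell in M[IL-4] with HC3 (-1.86 ± 0.26, FDR 1.10e-05) and with RSM (-2.96 ± 0.28, FDR 7.29e-08), the latter being the largest fall of any of the 10 in the 4 comparisons with vehicle. In M[0] the changes were -1.70 ± 0.43, FDR 0.00345, with RSM and -1.12 ± 0.40, FDR 0.0285, with HC3. The HC3 call in M[0] was lost on leaving out HC3 M[0] replicate 1 or 2 or Veh M[0] replicate 2 or 3, with log2 values of -1.14 to -0.91 and an FDR of up to 0.117.

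Among the relatives and partners of these genes, *Irf8*, an IRF factor of the monocyte lineage, was lower with HC3 and RSM in M[0] (-0.54 ± 0.07 and -0.43 ± 0.07) and lower with IL-4 in vehicle (-0.44 ± 0.07), each at FDR under 0.05 and none called. *Batf*, a relative of *Batf3*, rose in M[IL-4] with RSM (1.44 ± 0.23, FDR 4.40e-05) and with HC3 (0.81 ± 0.23, FDR 0.00947), where *Batf3* fell. *Stat6* itself was at 335 ± 4.97 CPM in Veh M[0] and 289 ± 9.60 CPM in Veh M[IL-4] (SD, n = 3), and its largest change with an inhibitor was -0.34 ± 0.05, FDR 1.30e-05, for HC3 in M[0]. The values of *Jun*, *Junb* and *Jund* with either inhibitor lay between -0.39 and 0.21 on the log2 scale, and none of them passed FDR.

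*Egr2* encodes a zinc finger factor of the early growth response family (chr10:67535475-67542188, plus strand). Its naive level was 21.3, 24.4 and 25.0 CPM with vehicle, 13.2, 12.9 and 13.4 with HC3 and 3.79, 3.56 and 4.83 with RSM. The 3 groups did not overlap, and the RSM libraries were the lowest. Its level after IL-4 was 213, 262 and 225 CPM with vehicle, 89.6, 99.2 and 86.2 with HC3 and 71.8, 76.3 and 66.0 with RSM, again with no overlap and in the same order. IL-4 raised *Egr2* by 3.31 ± 0.10, FDR 2.60e-14, in vehicle, by 2.80 ± 0.10 under HC3 and by 4.13 ± 0.12 under RSM. The response under RSM was the largest of the 3 as a ratio, with an interaction of 0.83 ± 0.15, FDR 0.00145, although the level reached was the lowest. As a difference in level, IL-4 added 209.7 ± 14.6 CPM in vehicle, 78.5 ± 3.90 CPM under HC3 and 67.3 ± 3.00 CPM under RSM (SE, n = 3). The inhibitor changes were -0.84 ± 0.10 for HC3 in M[0], below the threshold of size, -2.53 ± 0.12, FDR 7.23e-12, for RSM in M[0], -1.35 ± 0.09, FDR 8.47e-10, for HC3 in M[IL-4], and -1.71 ± 0.09, FDR 3.54e-11, for RSM in M[IL-4]. *Egr3*, a family member, was also lower with RSM in both polarizations (-1.95 ± 0.24 and -1.73 ± 0.32), but unlike *Egr2* it fell with IL-4 in vehicle (-2.07 ± 0.25, FDR 2.98e-06), from 5.94 ± 1.03 CPM. In M[IL-4] its values come from few counts, 16 to 31 a library with vehicle and 5 to 10 with RSM. *Egr1* fell with IL-4 in vehicle (-0.87 ± 0.18, FDR 0.00134), and its interval with HC3 in M[0] was -0.39 to 0.38. *Nab2*, a corepressor that binds EGR proteins, changed by 0.32 ± 0.10 with IL-4 in vehicle and by -0.37 ± 0.10 with RSM in M[0], both at FDR under 0.05 and below the threshold of size.

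*Klf4*, a zinc finger factor that works with STAT6 (chr4:55527143-55532466, minus strand), showed the largest rise with the inhibitors. Without IL-4 it stood at 12.4, 10.3 and 12.7 CPM with vehicle, 83.0, 78.8 and 92.2 with HC3 and 96.7, 87.7 and 99.0 with RSM. The M[0] inhibitor libraries thus lay above all 3 vehicle libraries given IL-4, which were at 75.7, 74.4 and 76.4 CPM. With IL-4 as well, *Klf4* reached 164, 145 and 165 CPM with HC3 and 192, 165 and 182 with RSM. The fold over vehicle in M[0] was 7.17 with HC3 (2.84 ± 0.09, FDR 4.88e-14) and 8.0 with RSM (3.00 ± 0.09, FDR 4.41e-14). In M[IL-4] the changes were 1.07 ± 0.08, FDR 5.33e-09, and 1.25 ± 0.08, FDR 6.09e-10, for HC3 and RSM. IL-4 raised *Klf4* by 2.68 ± 0.09, FDR 2.39e-13, in vehicle, against 0.90 ± 0.08 under HC3 and 0.93 ± 0.08 under RSM, both just below the threshold of size. Of its relatives, *Klf2*, a factor that restrains inflammatory activation, was lower with HC3 in M[IL-4] (-1.25 ± 0.17, FDR 6.47e-06) and *Klf6* changed by -0.29 ± 0.07 with HC3 in M[0].

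*Pparg* encodes the nuclear receptor PPARG, a regulator of fatty acid uptake and oxidation (chr6:115360951-115490399, plus strand). Its M[0] level was 106, 96.2 and 98.1 CPM with vehicle, 58.3, 48.4 and 49.9 with HC3 and 35.0, 26.4 and 33.3 with RSM, 3 groups with no overlap. Its M[IL-4] level was 151, 198 and 166 CPM with vehicle, 110.2, 120.4 and 102 with HC3 and 85.7, 94.0 and 87.4 with RSM. The RSM libraries given IL-4 thus lay below the vehicle libraries that had none. IL-4 raised *Pparg* by 0.78 ± 0.10, FDR 1.35e-05, in vehicle, 1.08 ± 0.11 under HC3 and 1.50 ± 0.11 under RSM, so as a ratio the response was larger with RSM (interaction 0.72 ± 0.15, FDR 0.00467), while the difference in level was 71.6 ± 14.2, 58.5 ± 6.21 and 57.5 ± 3.67 CPM in the 3 treatments (SE, n = 3). The inhibitor changes were -1.67 ± 0.11, FDR 6.99e-10, for RSM in M[0], -0.94 ± 0.11 for HC3 in M[0], -0.95 ± 0.11 for RSM in M[IL-4] and -0.63 ± 0.10 for HC3 in M[IL-4], of which only the first was called. 2 of these stood at the threshold: HC3 in M[0] was -1.03 without HC3 M[0] replicate 1, and RSM in M[IL-4] was -1.03 without Veh M[IL-4] replicate 1, both then called. The rise with IL-4 under HC3 was called, but the call was lost (0.979) without replicate 2.

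*Ppargc1b*, the coactivator PGC-1β that PPAR receptors and STAT6 use to drive oxidative metabolism, was the only one of 19 tested partners and cofactors called up by IL-4 in vehicle (2.45 ± 0.21, FDR 3.98e-08). It went from 1.61 ± 0.378 to 8.83 ± 1.10 CPM (SD, n = 3), and reached 4.14 ± 0.900 CPM under HC3 and 2.72 ± 0.234 CPM under RSM. In M[IL-4] it was lower with HC3 (-1.09 ± 0.19, FDR 1.32e-04) and with RSM (-1.70 ± 0.20, FDR 1.10e-06), again the only call of the 19 in each. Its interactions were -1.58 ± 0.29, FDR 0.00256, and -1.96 ± 0.30, FDR 2.90e-04. Of all genes, 6.66% were called with IL-4 in vehicle, and 10.3% and 11.0% with HC3 and RSM in M[IL-4]. *Rxra*, which encodes the partner of PPARG, moved by no more than 0.39 on the log2 scale in any comparison. Of 8 genes listed as known targets of PPARG, none was called with RSM in M[0], against 11.6% of all genes. There 2 rose and 3 fell at FDR alone, against 41.1% of all genes, and the median was -0.26, against 0.01 over all genes. With IL-4 in vehicle 2 of the 8 rose and 4 fell at FDR alone, against 31.0% of all genes. The median of the 8 was then -0.24, against -0.01 over all genes. *Cd36*, a fatty acid scavenger receptor, was called up there (1.06 ± 0.08, FDR 1.69e-08) and *Pdk4* down (-1.09 ± 0.30, FDR 0.00895). *Cd36* changed by -0.31 ± 0.08 with RSM in M[IL-4]. *Fabp5*, a fatty acid carrier, fell with IL-4 in vehicle (-0.30 ± 0.10, FDR 0.0307). It was higher with HC3 in naive (1.02 ± 0.10, FDR 1.32e-07) and polarized cells (1.05 ± 0.10, FDR 1.13e-07).

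*Cebpb* encodes C/EBPβ, a basic leucine zipper factor of macrophage differentiation and of *Arg1* expression (chr2:167688915-167690418, plus strand, 1 exon). Without IL-4 its level was 69.0, 104 and 116 CPM with vehicle, 130.3, 183 and 235 with HC3 and 157, 181 and 243 with RSM. Replicate 1 was the lowest library of each of these 3 groups. With IL-4 it was at 144, 75.0 and 85.9 CPM with vehicle, 227, 117 and 145 with HC3 and 276, 137 and 159 with RSM, and here replicate 1 was the highest of each group. With the numbers kept apart, the ratio of HC3 to vehicle was 1.89, 1.77 and 2.03 for naive cells and 1.58, 1.56 and 1.69 for polarized cells. The ratio of RSM to vehicle was 2.28, 1.74 and 2.09 for naive and 1.92, 1.83 and 1.85 for polarized cells. All 12 same-number ratios were above 1, although the M[IL-4] groups overlapped.

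Without the numbers, the *Cebpb* log2 value with HC3 was 0.93 ± 0.31, FDR 0.0198, in M[0] and 0.68 ± 0.31, FDR 0.0881, in M[IL-4], and with RSM it was 1.01 ± 0.31, FDR 0.0129, in M[0] and 0.91 ± 0.31, FDR 0.0248, in M[IL-4]. The value for HC3 in M[IL-4] passed FDR with a replicate block (FDR 0.0444) and with a replicate block within each polarization (4.36e-10). Only RSM in M[0] was called, and its value was at the threshold: 0.997 with a replicate block, which ended the call at an FDR of 0.00413, and 1.02 with a replicate block within each polarization, at an FDR of 2.03e-13. It was also lost (0.81 to 0.998) without Veh M[0] replicate 1, HC3 M[0] replicate 2, RSM M[0] replicate 3, Veh M[IL-4] replicate 1, RSM M[IL-4] replicate 1 or RSM M[IL-4] replicate 2. The other 3 values were called without some libraries: HC3 in M[0] without HC3 M[0] replicate 1 or Veh M[0] replicate 3 (1.08 to 1.12), HC3 in M[IL-4] without Veh M[IL-4] replicate 1 (1.03), and RSM in M[IL-4] without Veh M[IL-4] replicate 1 or RSM M[IL-4] replicate 2 or 3 (1.02 to 1.25). IL-4 gave no detectable change of *Cebpb* in vehicle (0.08 ± 0.31, FDR 0.874), with an interval of -0.59 to 0.75. Of its exonic length, 20.7% lies opposite exons of *Tmem189*, whose own log2 values ran from -0.22 to 0.07 with none called, and the sources used here do not state whether counting used strand.

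**Figure D2:**
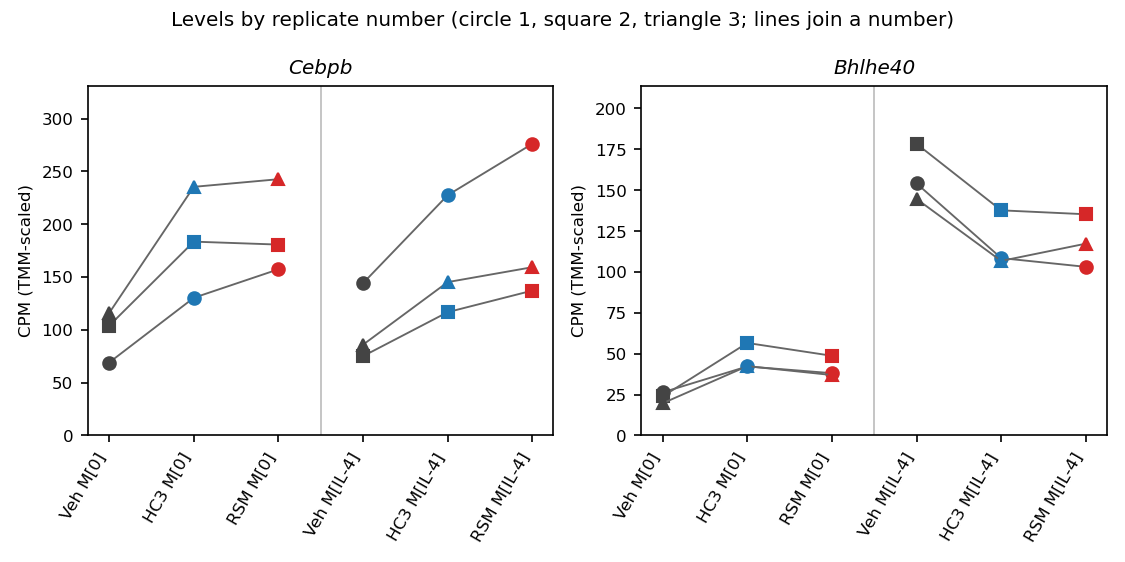
Level of *Cebpb* and *Bhlhe40* in CPM (axis from 0) in the 6 groups, with symbols for replicates 1, 2 and 3 and lines that join a replicate number across treatments within a polarization. For *Cebpb* replicate 1 is the lowest line in M[0] and the highest in M[IL-4], and every line rises from Veh to either inhibitor; for *Bhlhe40* every line rises from Veh in M[0] and falls in M[IL-4].

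Most other leucine zipper genes that pair with C/EBP proteins or act beside them were higher with the inhibitors. Of 5 tested ATF and C/EBP dimer partners, 3 were called up in each of the 4 comparisons with vehicle, namely *Atf4*, *Atf5* and *Ddit3*. They encode factors of the integrated stress response, and 10.3% to 12.0% of all genes were called in these comparisons. In naive cells *Atf4* rose by 1.77 ± 0.06 under HC3 and 1.74 ± 0.06 under RSM, and *Ddit3* by 3.33 ± 0.09 and 2.99 ± 0.09. *Atf3*, a stress-induced repressor of the same 5, went the other way with RSM, by -0.62 ± 0.08, FDR 2.06e-06, in naive and -0.83 ± 0.08, FDR 5.56e-08, in polarized cells, and with HC3 its values were 0.04 ± 0.08, FDR 0.710, and -0.26 ± 0.08, FDR 0.00883, in turn. *Cebpd*, a relative of *Cebpb* with roles in inflammation, was higher with RSM in naive (1.25 ± 0.22, FDR 1.54e-04) and polarized cells (1.92 ± 0.24, FDR 2.57e-06) and fell with IL-4 in vehicle (-1.02 ± 0.24). For *Cebpa*, the myeloid lineage factor, the value with HC3 in M[0] was -0.10 ± 0.18, FDR 0.684.

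*Nfil3*, a leucine zipper repressor that IL-4 induces in several immune cells (chr13:52967209-52981073, minus strand), was raised by IL-4 and, without it, by both inhibitors. Naive libraries stood at 10.9, 10.9 and 10.9 CPM with vehicle, 26.9, 24.8 and 25.0 with HC3 and 32.6, 32.6 and 34.0 with RSM. Both inhibitors gave levels above vehicle, and RSM above HC3, with no overlap. IL-4 libraries stood at 67.5, 84.5 and 77.5 CPM with vehicle, 61.9, 61.5 and 60.9 with HC3 and 79.3, 90.4 and 82.6 with RSM, so there HC3 lay below vehicle and RSM overlapped it. *Nfil3* rose with IL-4 by 2.81 ± 0.08, FDR 2.60e-14, in vehicle, and by 1.26 ± 0.08 and 1.35 ± 0.07 under HC3 and RSM. The inhibitor changes were 1.23 ± 0.08, FDR 8.50e-10, for HC3 in M[0], 1.60 ± 0.08, FDR 2.22e-11, for RSM in M[0], and, below the threshold of size, -0.32 ± 0.07, FDR 0.00185, for HC3 in M[IL-4]. For RSM in M[IL-4] the value was 0.14 ± 0.07, FDR 0.145, with an interval of -0.02 to 0.29, and FDR 0.0494 with the block within each polarization. Its relatives *Dbp* and *Tef*, activators that bind the same sites, fell with IL-4 in vehicle (-0.87 ± 0.13 and -0.26 ± 0.08, FDR 5.66e-05 and 0.0156).

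*Bhlhe40*, a helix-loop-helix repressor that supports macrophage proliferation in helminth infection (chr6:108660629-108666925, plus strand), changed direction with polarization. In M[0] it stood at 26.3, 23.8 and 19.6 CPM with vehicle, 42.2, 56.5 and 42.4 with HC3 and 38.0, 48.7 and 36.9 with RSM. All inhibitor libraries were above vehicle. In M[IL-4] it reached 154, 178 and 145 CPM with vehicle, 108, 138 and 107 with HC3 and 103, 135 and 117 with RSM, and all inhibitor libraries were below vehicle. The M[0] changes were 1.02 ± 0.15, FDR 2.54e-05, with HC3 and 0.83 ± 0.15, FDR 2.52e-04, with RSM, and the M[IL-4] changes were -0.44 ± 0.14, FDR 0.0186, and -0.42 ± 0.14, FDR 0.0216. Only HC3 in M[0] was called, at the threshold, and the call was lost (0.84 to 0.996) without any 1 of the 3 RSM M[0] libraries, HC3 M[0] replicate 2, Veh M[0] replicate 3, Veh M[IL-4] replicate 1 or RSM M[IL-4] replicate 1 or 2. IL-4 raised *Bhlhe40* by 2.77 ± 0.15, FDR 1.47e-10, in vehicle, 1.32 ± 0.14 under HC3 and 1.52 ± 0.15 under RSM. *Bhlhe41*, its close relative, rose in all 4 comparisons with vehicle (1.70 ± 0.13 and 1.61 ± 0.13 in M[0], 2.03 ± 0.13 and 1.49 ± 0.13 in M[IL-4], for HC3 and RSM in turn) and fell with IL-4 in vehicle (-0.81 ± 0.13, FDR 1.09e-04). Of the exonic length of *Bhlhe40*, 2.51% lies opposite *0610040F04Rik*.

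*Myc* encodes the growth factor-responsive helix-loop-helix activator of ribosome and nucleotide synthesis (chr15:61985391-61990374, plus strand). Naive libraries held 18.5, 24.0 and 25.6 CPM with vehicle, 43.9, 34.6 and 43.3 with HC3 and 36.0, 25.7 and 34.7 with RSM. Each inhibitor library lay above every vehicle library, for RSM by as little as 25.7 against 25.6 CPM. With IL-4 the level was 66.7, 64.9 and 63.6 CPM with vehicle, 66.0, 47.1 and 59.4 with HC3 and 53.9, 38.2 and 41.8 with RSM, so the vehicle libraries were close together and RSM lay below them. IL-4 raised *Myc* by 1.52 ± 0.16, FDR 5.39e-07, in vehicle, 0.50 ± 0.15, FDR 0.0322, under HC3 and 0.48 ± 0.15, FDR 0.0430, under RSM. The inhibitor values were 0.84 ± 0.16, FDR 2.78e-04, for HC3 in M[0], 0.50 ± 0.16, FDR 0.0173, for RSM in M[0], -0.54 ± 0.15, FDR 0.00770, for RSM in M[IL-4] and -0.18 ± 0.15, FDR 0.380, for HC3 in M[IL-4], and none was called.

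12 genes listed as known MYC targets, most of them of ribosome biogenesis, were compared with *Myc*. With IL-4 in vehicle 10 of 12 rose at FDR alone, none was called, and their median was 0.47. With HC3 in M[0] all 12 rose at FDR alone and 2 were called, *Odc1*, the first enzyme of polyamine synthesis (1.52 ± 0.08), and *Rrp9* (1.27 ± 0.15), with a median of 0.71, and with RSM 11 rose, *Odc1* being called (1.15 ± 0.08). In M[IL-4] 8 rose with HC3 (median 0.31) and 5 with RSM (median 0.12), and none fell in any of the 4 comparisons, in which the median over all genes was 0.01 to 0.02. Of all genes, 31.0% passed FDR in either direction with IL-4 in vehicle. With HC3 the share was 44.1% for naive and 38.8% for polarized cells, and with RSM 41.1% and 38.6%, so the 5 of 12 with RSM in M[IL-4] is near the background. Of its partners, *Max* moved by no more than 0.32 on the log2 scale in any comparison. *Mycl* fell with RSM in M[0] (-1.79 ± 0.45, FDR 0.00379), from 1.28 ± 0.100 CPM.

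*Kdm6b* encodes the demethylase JMJD3 (chr11:69398508-69413675, minus strand, 23 exon blocks) and had the smallest range over the groups along with *Cebpb*. Without IL-4 it was at 7.74, 8.69 and 11.8 CPM with vehicle, 11.2, 12.9 and 11.6 with HC3 and 20.5, 18.8 and 21.4 with RSM. RSM lay above both other groups, while HC3 overlapped vehicle. With IL-4 its level was 15.8, 16.3 and 12.8 CPM with vehicle, 16.4, 10.8 and 15.5 with HC3 and 19.2, 13.2 and 13.8 with RSM, and the 3 groups overlapped. IL-4 raised *Kdm6b* by 0.67 ± 0.18, FDR 0.00766, in vehicle, below the threshold of size, while the values were 0.26 ± 0.18, FDR 0.389, under HC3 and -0.39 ± 0.17, FDR 0.145, under RSM. RSM raised it in M[0] (1.10 ± 0.18, FDR 5.33e-05), a call lost at 0.978 without Veh M[0] replicate 1, and the HC3 value there was 0.34 ± 0.18, FDR 0.140. With the block within each polarization, the HC3 value in M[0] and the IL-4 value under RSM passed FDR (0.0450 and 0.0190). In M[IL-4] the interval was -0.45 to 0.31 for HC3 and -0.34 to 0.42 for RSM. 4.11% of its exonic length lies opposite *Kdm6bos*. *Kdm6a*, the other demethylase of the family, changed by -0.24 ± 0.09 with IL-4 in vehicle. Among 7 genes of the opposing methylation complex, *Ezh2*, its catalytic subunit, rose with IL-4 in vehicle (0.58 ± 0.12, FDR 7.92e-04). *Ezh2* was lower in M[IL-4] with HC3 (-0.95 ± 0.12, FDR 3.02e-06) and RSM (-1.15 ± 0.12, FDR 2.81e-07), the last being the only call of the 7 there. *Jarid2* was the only one called with HC3 in M[0] (-1.23 ± 0.10, FDR 1.76e-08). Of all genes, 11.0% were called with RSM in M[IL-4] and 12.0% with HC3 in M[0].

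**Figure D3:**
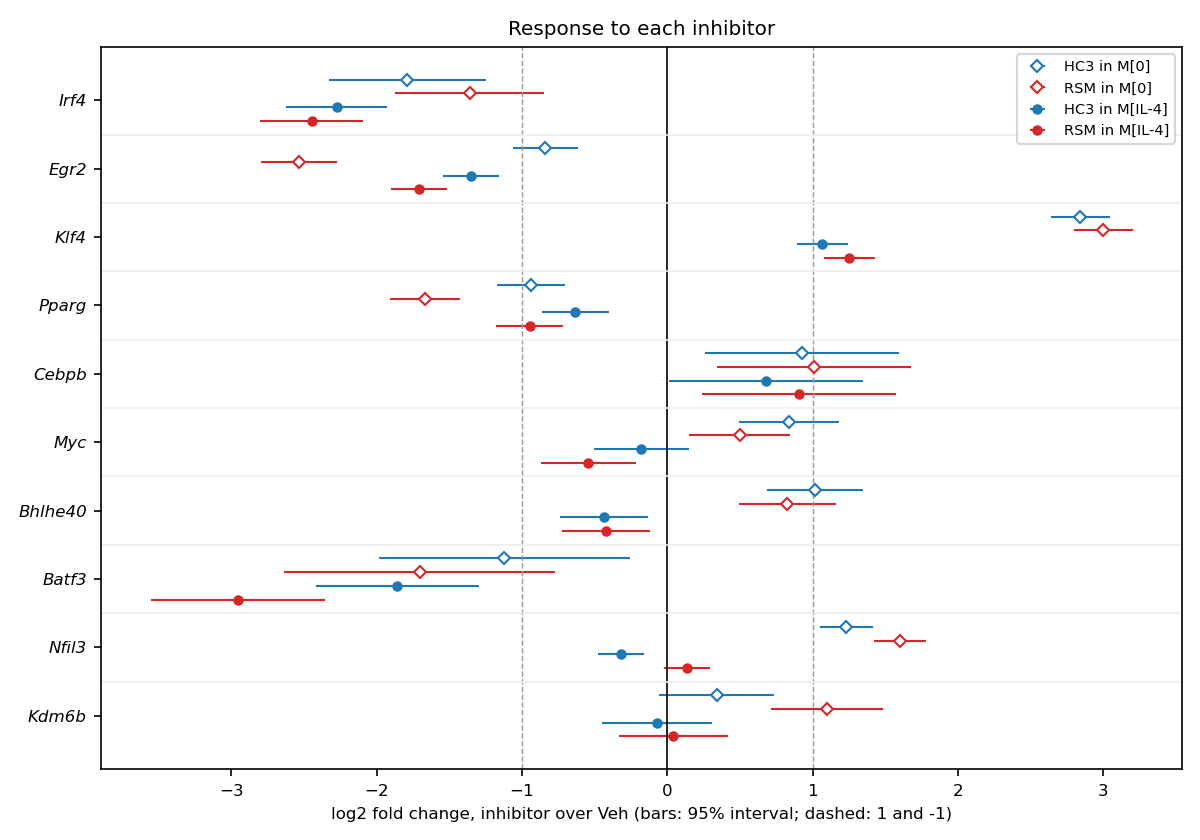
Log2 fold change of each regulator with HC3 or RSM over vehicle, in M[0] (open diamonds) and M[IL-4] (filled circles), with 95% intervals; dashed lines mark 1 and -1. *Irf4*, *Egr2*, *Pparg* and *Batf3* sit left of 0 and *Klf4* and *Cebpb* right of 0 in all 4 comparisons, while *Bhlhe40* lies near 1 in M[0] and below 0 in M[IL-4].

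Whether an inhibitor changed the response to IL-4 was tested as an interaction, the difference between the IL-4 log2 fold change under the inhibitor and that in vehicle. With HC3, 4 regulators were called with a smaller response and none with a larger one, against a background of 1.24%, and 5 were smaller at FDR alone (background 6.48%), the fifth being *Egr2* (-0.51 ± 0.14). With RSM, 6 were called with a smaller response (background 2.14%), and at FDR alone 6 were smaller and 2, *Egr2* and *Pparg*, larger (background 9.19%). The called genes under both were *Klf4* (-1.78 ± 0.12 with HC3 and -1.75 ± 0.12 with RSM), *Nfil3* (-1.55 ± 0.11 and -1.46 ± 0.11), *Bhlhe40* (-1.45 ± 0.21 and -1.25 ± 0.21) and *Myc* (-1.02 ± 0.22 and -1.04 ± 0.22), and with RSM also *Irf4* (-1.09 ± 0.29) and *Kdm6b* (-1.06 ± 0.25). *Klf4*, *Nfil3*, *Bhlhe40* and *Myc* each began higher in the inhibitor groups in M[0], so their smaller ratios do not by themselves give the levels reached. For *Batf3* the interaction with RSM was -1.25 ± 0.54, FDR 0.180, with an interval of -2.43 to -0.07.

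Several of these calls rested on single libraries. The *Myc* interaction with HC3 was lost (-0.99 to -0.89) without any of Veh M[0] replicate 1, HC3 M[0] replicate 1 or 3, RSM M[0] replicate 1, 2 or 3, Veh M[IL-4] replicate 1, HC3 M[IL-4] replicate 2 or RSM M[IL-4] replicate 1 or 2. That with RSM was lost (-0.997 to -0.91) without Veh M[0] replicate 1, RSM M[0] replicate 1 or 3 or RSM M[IL-4] replicate 2 or 3. The *Irf4* interaction with RSM was lost (-1.06 to -0.84, FDR up to 0.142) without Veh M[0] replicate 1 or 3, RSM M[0] replicate 1, RSM M[IL-4] replicate 1 or Veh M[IL-4] replicate 2. That of *Kdm6b* was lost (-0.997 to -0.94) without Veh M[0] replicate 1, Veh M[IL-4] replicate 2 or RSM M[IL-4] replicate 2 or 3. No single library ended the interaction calls of *Klf4*, *Nfil3* or *Bhlhe40*.

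The same responses read differently on the linear scale. IL-4 added 63.8 ± 0.958 CPM of *Klf4* in vehicle, 73.5 ± 7.64 CPM under HC3 and 85.3 ± 8.72 CPM under RSM (SE, n = 3). The mean amount added was higher under the inhibitors, while the ratio of means went from 6.41 in vehicle to 1.87 and 1.90. For *Nfil3* IL-4 added 65.6 ± 4.94, 35.9 ± 0.729 and 51.1 ± 3.33 CPM in the 3 treatments, and for *Bhlhe40* 136 ± 10.2, 70.6 ± 11.1 and 77.3 ± 10.0 CPM. For *Myc* the amounts were 42.3 ± 2.33, 16.9 ± 6.30 and 12.5 ± 5.75 CPM. Their mean gains were smaller on both scales, unlike *Klf4*. *Irf4* gained 67.4 ± 6.10 CPM in vehicle, 13.6 ± 1.40 CPM under HC3 and 11.5 ± 1.58 CPM under RSM, and *Batf3* 21.9 ± 2.30, 5.76 ± 1.000 and 2.54 ± 0.651 CPM. The differences between these amounts are descriptions and were not tested.

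**Figure D4:**
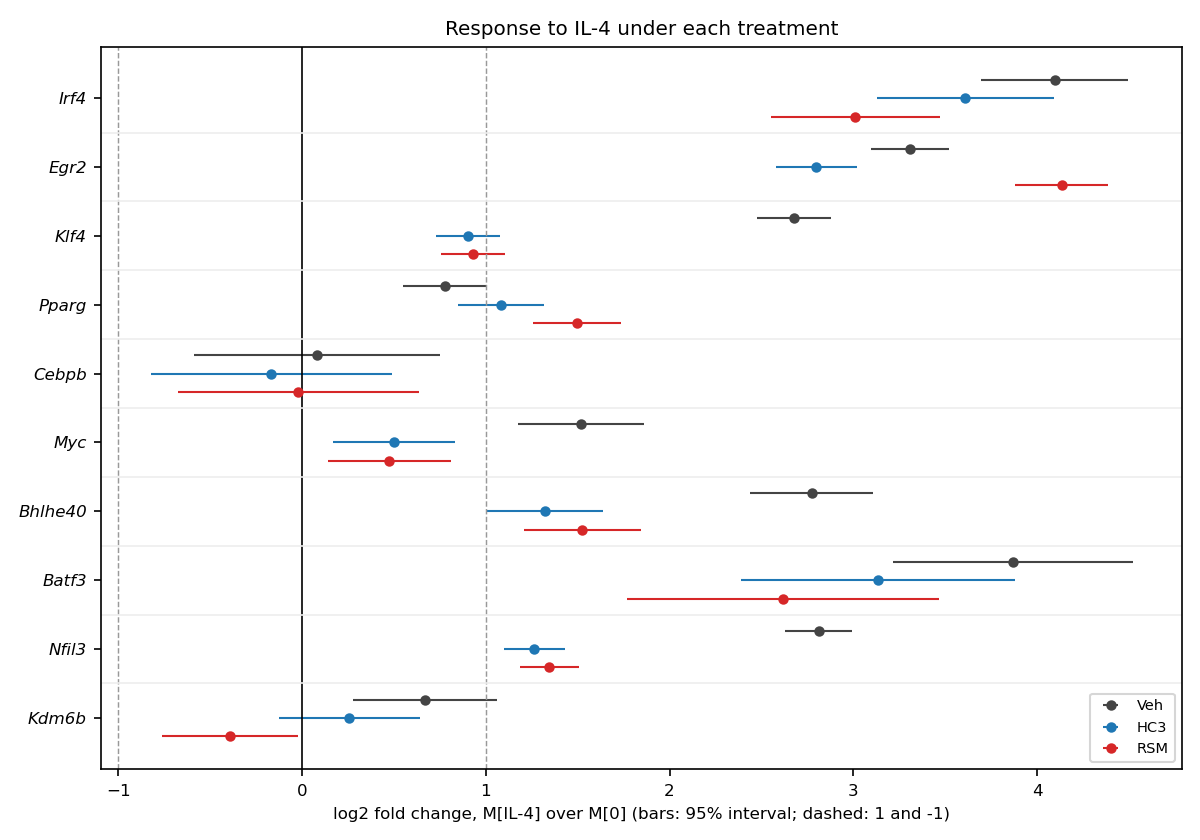
Log2 fold change of each regulator with IL-4, M[IL-4] over M[0], under vehicle, HC3 and RSM, with 95% intervals; dashed lines mark 1 and -1. The inhibitor points of *Klf4*, *Myc*, *Bhlhe40* and *Nfil3* lie left of the vehicle point, whereas those of *Pparg* lie to its right.

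**Figure D5:**
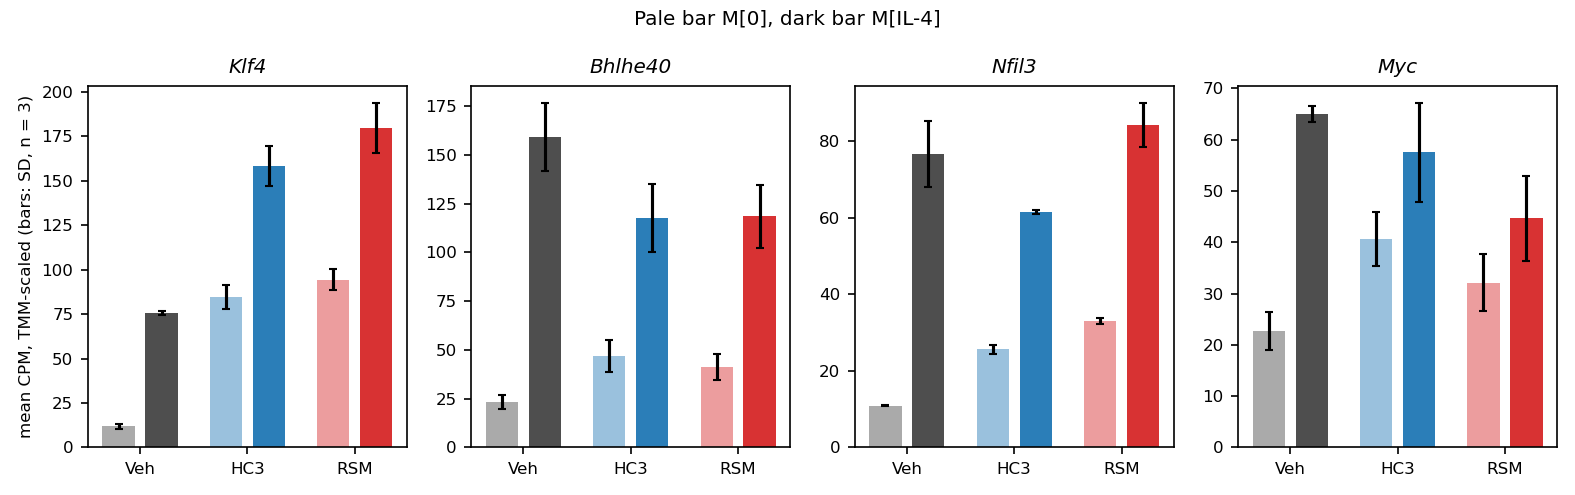
Mean CPM (axis from 0; bars are SD, n = 3) of the 4 regulators whose interaction was called with both inhibitors, with pale bars for M[0] and dark bars for M[IL-4]. The step from pale to dark is 63.8 CPM in vehicle and 85.3 CPM with RSM for *Klf4*, and shrinks from 42.3 to 12.5 CPM for *Myc*.

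HC3 and RSM were compared with each other at the single dose used of each, which differ. In M[0], 1 regulator was called (background 3.04%), *Egr2*, which was higher with HC3 (1.69 ± 0.12, FDR 2.74e-08), and at FDR alone 2 were higher and 2 lower with HC3 (13.6%). The others at FDR alone were *Pparg*, higher with HC3 (0.73 ± 0.11), and *Kdm6b* and *Nfil3*, lower with it (-0.76 ± 0.17 and -0.37 ± 0.08). In M[IL-4], 1 was called (background 2.80%), *Batf3*, higher with HC3 (1.10 ± 0.28, FDR 0.0129), and at FDR alone 2 were higher and 1 lower (13.0%), the others being *Egr2* (0.36 ± 0.09) and *Nfil3* (-0.45 ± 0.07). The *Batf3* call was lost (0.86 to 0.87) without HC3 M[IL-4] replicate 1 or RSM M[IL-4] replicate 2. For *Irf4* the difference in M[IL-4] had an interval of -0.19 to 0.53 and for *Klf4* of -0.36 to -0.01, neither passing FDR. Modelling the replicate number within each polarization raised the regulators that passed FDR from 4 to 6 in M[0] and from 3 to 7 in M[IL-4], with none lost and no call changed. *Klf4* then passed in both (FDR 0.0195 and 0.00490), as did *Myc* (0.0164 and 0.00766), and *Pparg* (2.98e-04) and *Cebpb* (0.00569) passed in M[IL-4].

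The regulators differed in level and in pattern. Per kilobase of exon, in Veh M[0] *Cebpb* was the most abundant at 64.0 ± 16.2 RPKM (SD, n = 3), followed by *Pparg* at 33.9 ± 1.81, and *Irf4* the least at 0.854 ± 0.116 RPKM. In Veh M[IL-4] *Egr2*, at 68.7 ± 7.41 RPKM, and *Cebpb*, at 67.6 ± 24.7, were highest and overlapped within their spread, and *Kdm6b* was lowest at 2.15 ± 0.269 RPKM. From the lowest to the highest group mean, *Irf4* spanned a ratio of 59.6, *Egr2* 57.5, *Batf3* 48.3 and *Klf4* 15.3 in CPM, whereas *Nfil3* spanned 7.72, *Bhlhe40* 6.84, *Pparg* 5.44, *Myc* 2.86, *Kdm6b* 2.15 and *Cebpb* 2.01. The highest group was Veh M[IL-4] for *Irf4*, *Egr2*, *Batf3*, *Pparg*, *Bhlhe40* and *Myc*, RSM M[IL-4] for *Klf4* and *Nfil3*, and RSM M[0] for *Cebpb* and *Kdm6b*.

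Likeness was measured as the root mean square difference between 2 genes over the 6 group means of log2 CPM, each centred on its own mean, and is a description over 6 points. Within the 10, the smallest differences were for *Bhlhe40* and *Nfil3* (0.29), *Cebpb* and *Kdm6b* (0.36), *Irf4* and *Batf3* (0.45), *Myc* and *Kdm6b* (0.49) and *Egr2* and *Batf3* (0.53). The measure is not scaled to spread, so genes that vary little lie close without sharing a pattern. The root mean square of *Kdm6b* about its own mean was 0.34, smaller than its difference from *Cebpb* or *Myc*. That of *Cebpb* was 0.42 and that of *Myc* 0.51, against 1.99 for *Irf4*. Among all tested genes, the nearest to *Irf4* was *Batf3* itself, followed by *Hr* (0.50), and the nearest to *Egr2* was *Il27ra* (0.38), followed by *Batf3*. *Batf3* had *Hr* (0.33) and *Il27ra* (0.34) nearest. *Klf4* had *Slc27a6* (0.13) and *Cd274* (0.37) nearest, the latter encoding the ligand PD-L1. *Nfil3* and *Bhlhe40* shared both of their nearest genes, *Flrt2* (0.17 and 0.21) and *Gm31904* (0.22 and 0.23). The nearest were *Chd5* (0.10) and *Gm5547* (0.11) for *Pparg*, *Derl1* and *Hpse* (0.05 for both) for *Cebpb*, *Tmem268* (0.13) and *Inpp5a* (0.15) for *Myc*, and *Pgk1* and *Prelid2* (0.11 for both) for *Kdm6b*, whose own spread over the groups is small.

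The rise of the regulators with IL-4 was set beside their families and beside genes that they act on. Of 17 tested family relatives, none was called up by IL-4 in vehicle and 3 were called down, namely *Egr3*, *Mycl* and *Cebpd*, against 6.66% of all genes called. At FDR alone 2 rose and 11 fell, against 31.0% of all genes, with a median of -0.34, against -0.01 over all genes. Of 12 IL-4 effector genes, such as *Arg1*, *Mrc1* and *Clec10a*, 11 were called up in vehicle, 10 under HC3 and 9 under RSM. The shares of all genes called were 6.66%, 3.97% and 4.26%. With the inhibitors in M[IL-4] the effector genes split. HC3 left none called up and 4 called down (*Arg1*, *Retnla*, *Ccl22* and *Ccl24*), against 10.3% of all genes called. RSM left 4 called up (*Arg1*, *Chil3*, *Mgl2* and *Clec10a*) and 4 called down (*Retnla*, *Ccl17*, *Ccl22* and *Ccl24*), against 11.0% of all genes. *Mrc1*, the mannose receptor, was called down with HC3 in M[0] (-1.76 ± 0.12, FDR 9.06e-10), and in M[IL-4] changed by -0.75 ± 0.12 with HC3 and 0.79 ± 0.12 with RSM, below the threshold of size. Of 7 other macrophage transcription factors, *Tfec* was called up by IL-4 in vehicle (1.33 ± 0.13, FDR 2.32e-07) and *Maf* down (-1.38 ± 0.08, FDR 2.19e-10). At FDR alone 2 rose and 2 fell, against 31.0% of all genes, with a median of 0.02.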

How the data were processed

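Poly-T selected mRNA of 18 BMDM libraries in 6 groups of 3 was sequenced. Per the labels and the study's methods, the authors deposited raw counts per Ensembl gene, made by fastp trimming, STAR alignment to GRCm38, duplicate marking in Picard and featureCounts on exons. The annotation release and strand setting are not given in the sources used here. Groups came from the treatment and polarization in the labels. Gene symbols and positions came from GENCODE for GRCm38 and matched 55144 of 55385 genes, and no transcript of the 10 regulators shared a stretch of at least 100 bases at 98% identity with another gene (blastn 2.17.0).

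The 14979 genes that reached 10 counts in 2 or more libraries were fitted with edgeR 4.0.16 (TMM, glmQLFit, glmQLFTest) in R 4.3.3, with 1 coefficient per group and 12 residual degrees of freedom behind the 95% intervals. Interactions were differences between IL-4 responses. 29 alternatives covered a replicate block, DESeq2 1.42.0, filters, scaling and left-out libraries. The scripts were tested on simulated data. The 10 regulators and all gene lists were chosen with earlier results of these data known, and no set was tested. List genes were named as relatives, partners or targets of a regulator described beside them, and a few because they were the only ones of a list called, after their values were seen.

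The deviations of libraries from their group means were correlated to see whether replicate numbers pair libraries: all 18 pairs with the same number and polarization had r from 0.11 to 0.37, against 12 of 27 above 0.1 across polarizations. The numbers come from the labels, which do not say that a number marks the same mouse in both polarizations. Replicates of a group differed by more than counting noise. Libraries held 17457796 to 19522255 counts, and p-values measure the spread between these libraries.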

Additional observations from a re-analysis of the deposited data

Results flagged for a closer look

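10 results stood out because the response to IL-4 differed between an inhibitor and vehicle by the test of the difference itself (edgeR quasi-likelihood interaction, log2 scale, negative where the response was smaller under the inhibitor). With HC3 the interactions were -1.775 for *Klf4*, -1.547 for *Nfil3*, -1.451 for *Bhlhe40* and -1.016 for *Myc*. With RSM they were -1.749 for *Klf4*, -1.465 for *Nfil3*, -1.249 for *Bhlhe40*, -1.088 for *Irf4*, -1.060 for *Kdm6b* and -1.042 for *Myc*. Both inhibitors were set against the same vehicle libraries, so the 2 sets of values are not independent.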

How the results depend on the processing

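Over the 29 alternatives, 3114 of 3190 values of the 10 regulators kept their side of the threshold, 66 lost a call, 10 gained one and no called value changed sign. 34 values that were not called, of *Cebpb*, *Bhlhe40* and *Kdm6b*, had the opposite sign under an alternative, and none of these was above 0.25 in size as reported. The replicate block changed 1 call, that of *Cebpb* with RSM in M[0] (0.997, FDR 0.00413), and the block within each polarization, DESeq2, filterByExpr, library size scaling and fits of only the groups compared changed none. At FDR alone the block added 4 passes and the block within each polarization 13, and neither lost one. Without mitochondrial genes the calls of *Cebpb* with RSM and *Bhlhe40* with HC3 in M[0] were lost, and without a count filter the *Batf3* interaction with RSM was called. Leaving out a library or a replicate number gave 3 to 6 regulators called with HC3 in M[0], 0 to 1 for HC3 against RSM in M[IL-4] and 3 to 6 for the RSM interaction. The counts of 0 came without replicate 1, without replicate 3, and without HC3 M[IL-4] replicate 1 or RSM M[IL-4] replicate 2. The 3 RSM interactions came without replicate 3 or Veh M[0] replicate 1, and the 3 HC3 calls without replicate 2 or HC3 M[0] replicate 2. *Batf3* in M[0] is limited by depth, at 5 to 16 counts a library with RSM.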
